A study of Mus musculus with 6 samples.

Results

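NF-kB is a family of dimeric transcription factors that cells hold ready in the cytoplasm and release within minutes of a signal. The 10 genes described here encode 4 of its subunits (Rela, Nfkb1, Nfkb2 and Relb), 3 cytoplasmic inhibitors of the IkB family (Nfkbia, Nfkbib and Nfkbie), 2 nuclear IkB proteins (Nfkbiz and Bcl3) and the ubiquitin-editing protein A20 (Tnfaip3). They were taken by symbol from a deposited table of 53797 genes, in which each symbol matched 1 row. After stimulation with low-intensity pulsed ultrasound (LIPUS), Nfkbiz was 1.58-fold lower and Tnfaip3, at a low level, 1.63-fold higher. Nfkbia and Bcl3, both with a ratio of 1.47, did not reach the 1.5-fold used for counting, and the subunits lay close to their control levels.

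RNA was sequenced from MLO-Y4 cells, an osteocyte-like line of mouse cells. There were 3 libraries of cells stimulated for 20 min at 1.5 MHz and 30 mW/cm2, and 3 libraries of untreated control cells. According to the methods, both groups came from the same 6-well plates, in which 3 transducers were active and 3 unplugged, and RNA was extracted 30 min after the stimulation. All cells were cultured in medium with fetal bovine serum on collagen, and the labels give no genetic change in either group.

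The table holds a single FPKM value (fragments scaled to exon length and to the number of mapped reads) for each group, pooled by the authors over its 3 libraries. No value of a single library was available for analysis, so no SD, no interval and no test between the groups was computed here. The authors' own test, made over the 3 libraries of each group, was not used. The differences below are therefore not set against the spread between cultures. The study describes 1 control library that stood apart from the other control libraries, and values without that library could not be computed. The paper proposes that stimulation may have leaked into control wells of the shared plate. The pooled Control value may therefore include partly stimulated cells, which was not tested. In these bulk cultures, fewer cells expressing a gene and less RNA per cell cannot be told apart. The methods state a round number of reads for each sample, and the table holds nothing against which to check it.

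NF-kB signalling begins when a receptor for a cytokine or a microbial product recruits adaptors and activates the IkB kinases. The kinases mark the inhibitors of the IkB family for destruction, and the freed dimers, such as p65 with p50, enter the nucleus. Among the genes that NF-kB switches on are its own inhibitors, above all Nfkbia and Tnfaip3, and the levels of these feedback genes are often read as a trace of recent NF-kB activity. In bone, the pathway is known for the response of osteoclast precursors to RANKL and for the inflammatory output of osteoblasts and osteocytes.

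Promoter sequences of the members are shown first, since several of these genes, among them Nfkbia and Tnfaip3, are textbook targets of NF-kB. RefSeq promoter windows of GRCm38.p6, with 250 bases before and 50 after each start of transcription, matched 7 of the 10 members and gave 10 windows. Nfkb1, Nfkbiz and Relb were not matched. The kB consensus, searched on both strands, occurred in 7 of these windows and in 5 of the 7 genes, against 4.51% of all 32851 windows. Windows of Nfkb2 overlap and share a site, so they are not independent. A match describes these letters and is no evidence that a factor binds there.

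For Nfkbia, the inhibitor with the largest difference in FPKM toward higher levels, the 250 bases before the start of transcription (chr12:55492648-55492897, minus strand) carry 1 match, shown in capitals, which begins 29 bases before the start.
Nfkbia upstream: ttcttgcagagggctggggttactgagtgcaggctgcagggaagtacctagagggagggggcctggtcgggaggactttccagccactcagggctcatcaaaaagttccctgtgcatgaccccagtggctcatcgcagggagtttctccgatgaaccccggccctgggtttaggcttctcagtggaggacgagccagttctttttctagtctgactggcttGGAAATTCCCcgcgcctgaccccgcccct

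The other matches are given as windows of 30 bases, 5′ to 3′ on the strand of the gene, with the match in capitals. They show that the element recurs near the starts of Nfkb2, Tnfaip3, Nfkbie and Bcl3. In Nfkb2 (plus strand) they lie at chr19:46304688-46304717 and chr19:46304716-46304745, beginning 39 and 11 bases before the first start, and at chr19:46305449-46305478 and chr19:46305695-46305724 near its later starts. A further match of Nfkb2 overlaps its site 1 with a shift of 1 base and is not shown. In Tnfaip3 (minus strand) they lie at chr10:19015516-19015545 and chr10:19015403-19015432, beginning 125 and 12 bases before its upstream start. In Nfkbie (plus strand) the window is chr17:45555584-45555613, 106 bases before the start, and in Bcl3 (minus strand) it is chr7:19822734-19822763, where the match begins at base 3 of the transcript.
Nfkb2 site 1: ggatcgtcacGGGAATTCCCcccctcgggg
Nfkb2 site 2: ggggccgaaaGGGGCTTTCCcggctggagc
Nfkb2 site 3: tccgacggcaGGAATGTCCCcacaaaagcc
Nfkb2 site 4: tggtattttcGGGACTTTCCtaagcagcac
Tnfaip3 site 1: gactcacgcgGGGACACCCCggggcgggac
Tnfaip3 site 2: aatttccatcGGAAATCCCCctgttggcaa
Nfkbie site: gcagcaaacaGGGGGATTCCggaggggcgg
Bcl3 site: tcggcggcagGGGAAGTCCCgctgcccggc
The windows of Rela and Nfkbib, and that of a second start of Tnfaip3 (chr10:19011914-19012213), held no match to the consensus. Of the genes with a match, Nfkbia, Tnfaip3 and Bcl3 had log2 ratios of LIPUS over Control between 0.54 and 0.68, and Nfkb2 and Nfkbie had ratios of -0.058 and 0.044. Rela and Nfkbib, without a match, had log2 ratios of 0.16 and -0.13. Nfkb1, Nfkbiz and Relb, which had no window, had log2 ratios of -0.0014, -0.66 and 0.11. Tnfaip3 and Bcl3 are genes with low levels. Whether a match goes with the ratio of a gene was not tested.

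To compare the groups, the log2 ratio of LIPUS over Control was taken after adding a pseudocount of 0.1 FPKM, for the 11536 genes with a mean FPKM of at least 1 over both groups. All 10 members passed this minimum, which uses both groups alike and favours no direction. The pseudocount understates the change of genes with low levels. Values given as a fold are ratios of the FPKM as deposited, without the pseudocount, and so can differ from the log2 ratio beside them. A gene was counted as different when the ratio reached 1.5-fold, that is 0.58 on the log2 scale. By this rule 2 of the 10 members were past the fold, Tnfaip3 higher and Nfkbiz lower, against 15.5% of all genes compared, so the number of members past the fold is close to the background. Over all genes compared, 7.46% were higher and 8.08% lower past this fold, and the median log2 ratio was -0.0018. The median of the members was 0.08, with 6 members above 0 and 4 below it. Cuffdiff, the program with which the authors compared the groups, gave 7 members the status OK and made no test for Nfkbie, Tnfaip3 and Bcl3. The outcome of its tests was not used here. The paper lists Nfkbiz among the genes it reports as responding to LIPUS in these cells. It also marks Nfkbiz among the transcription-related genes chosen for qPCR in fractured zebrafish fins. Nfkbiz is not named among those it reports as altered by LIPUS in the fins.

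**Figure D1:**
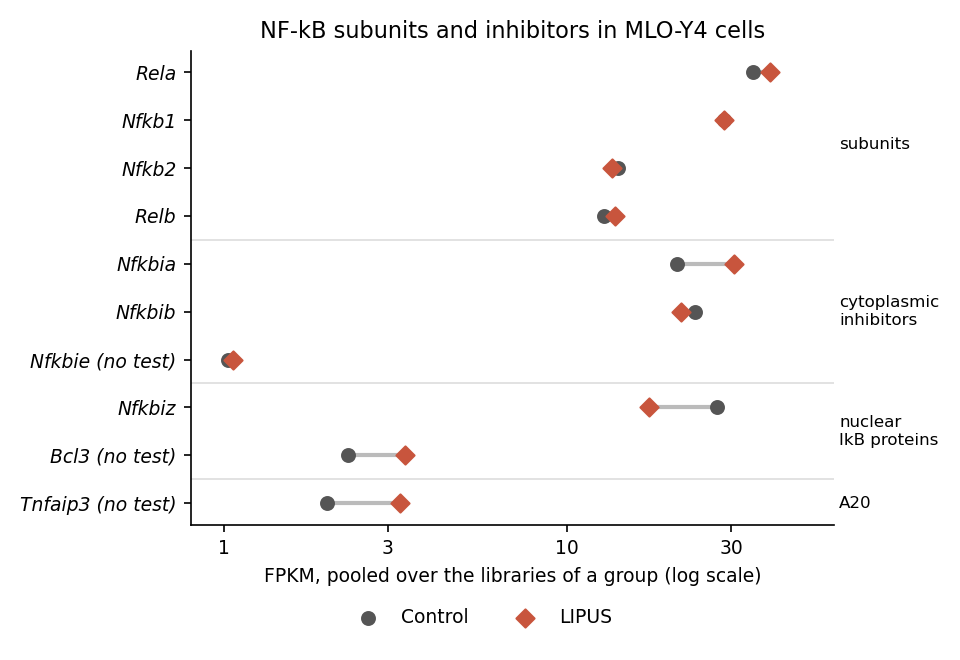
FPKM of the 10 members in Control (circles) and LIPUS (diamonds) on a log axis, 1 pooled value per group without error bars, ordered by role. Nfkbiz was at 27.3 FPKM in Control and 17.3 in LIPUS, and Nfkbia at 20.8 and 30.5, while the symbols of the 4 subunits overlap or nearly so.

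Low genes varied more between the groups than abundant ones, so each member was also set beside the genes of its own range of expression. This division was chosen after the data were seen. Among the 3546 genes with a mean FPKM of 10 to 30, 8.66% were past the fold, and of the 6 members in this range Nfkbiz was past it. Among the 1731 genes with a mean FPKM of 1 to 3, 41.2% were past the fold, and of the 3 members in this range Tnfaip3 was past it. In the range of 30 to 100 FPKM, where 4.92% of 2238 genes were past the fold, the single member Rela was not.

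**Figure D2:**
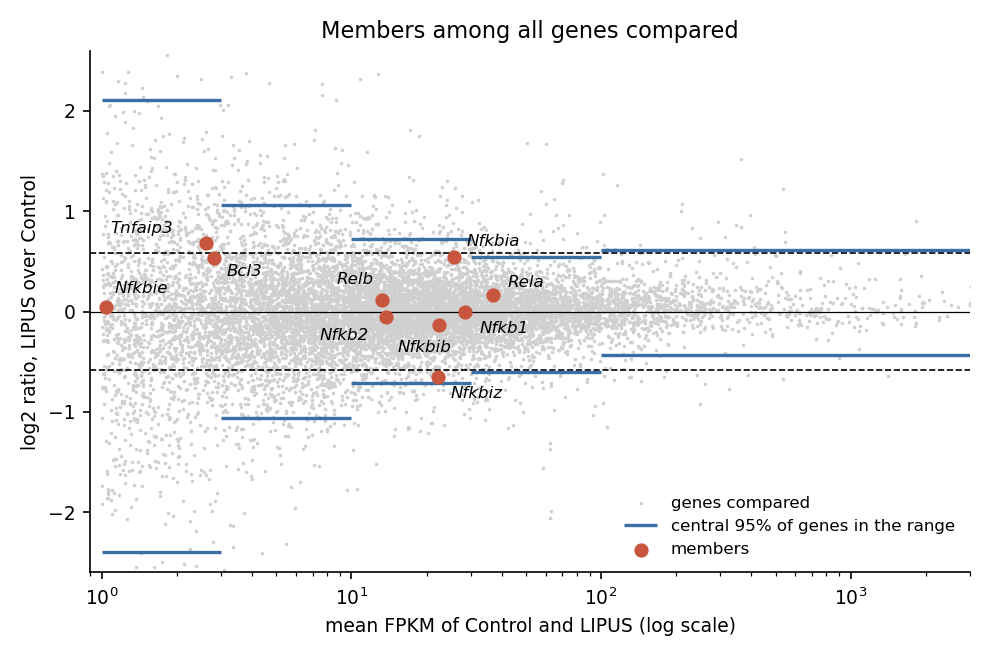
Log2 ratio of LIPUS over Control against the mean FPKM (log axis) for the genes compared (grey, 116 genes beyond the axes not drawn) and the 10 members (red). Dashed lines mark 1.5-fold and blue lines the central 95% of genes in each range of mean FPKM. Nfkbiz lies near the lower blue line of its range (-0.66 against -0.71), Nfkbia lies below the upper one (0.55 against 0.72), and Tnfaip3 and Bcl3 lie well inside the wide range of low genes.

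The subunits carry the DNA-binding Rel domain. Rela encodes p65, the main activating subunit of the canonical pathway, and was the most abundant member in both groups. Its level was 34.9 FPKM in the controls and 39.1 FPKM after LIPUS, a log2 ratio of 0.16. Rela lies on chr19:5637483-5648130 (plus strand, GENCODE M21 on GRCm38).

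Nfkb1 encodes p105, the precursor of p50, which is the usual partner of p65. Its FPKM was 28.6 in both groups, with a log2 ratio of -0.0014, the smallest difference among the members. The gene spans chr3:135584655-135691547 on the minus strand.

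Nfkb2 encodes p100, an inhibitor that is cut to p52 in the non-canonical pathway, and Relb encodes the partner of p52. Nfkb2 had 14.03 FPKM in the controls and 13.5 FPKM after LIPUS, a log2 ratio of -0.058. Relb had an FPKM of 12.8 and 13.8, a log2 ratio of 0.11. The pair therefore had nearly equal levels in each group, with Nfkb2 over Relb at 1.10 in the controls and 0.977 after LIPUS. Nfkb2 (chr19:46304320-46312385, plus strand) shares 299 exonic bases with Psd on the other strand, which had an FPKM of 2.102 and 1.471, and 531 with the noncoding gene AC114539.1, also on the other strand. Relb spans chr7:19606217-19629438 on the minus strand.

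The summed FPKM of the 4 subunits was 90.2 in the controls and 94.9 after LIPUS, a ratio of 1.05. Rela made up 38.6% and 41.2% of this sum, Nfkb1 31.7% and 30.1%, Nfkb2 15.5% and 14.2%, and Relb 14.1% and 14.5%. Rel, the remaining gene of the family, encodes c-Rel and had an FPKM of 3.78 and 3.80. The composition of the subunits was thus much alike in both groups, and 39.1 FPKM for Rela against 12.8 for Relb spans the range of the 4 genes over both groups.

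The cytoplasmic inhibitors mask the nuclear localisation signal of the dimers. Nfkbia encodes IkB-alpha, the inhibitor that is destroyed and made again in each cycle of activation. Its level was 20.8 FPKM in the controls and 30.5 FPKM after LIPUS. The ratio was 1.47-fold, or 0.55 on the log2 scale, just under the fold used for counting. Of the 3546 genes in its range of expression, 184 had a ratio at least as high. Nfkbia is a short gene at chr12:55489410-55492647 (minus strand) with 1610 exonic bases.

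Nfkbib encodes IkB-beta, which is replaced more slowly. Its level was 23.5 FPKM in the controls and 21.5 FPKM after LIPUS, a log2 ratio of -0.13. Nfkbib lies on chr7:28758251-28767512 (minus strand) and shares 42 exonic bases with Sirt2 and 314 with Ccer2, both on the plus strand. Sirt2 had an FPKM of 24.4 and 29.1, and Ccer2 is listed at 0 in both groups. The library kit preserves the strand, but whether the counting used it is not given in the sources used here, so a few reads of Nfkbib could belong to Sirt2.

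Nfkbie encodes IkB-epsilon, which responds late and dampens oscillations of NF-kB. It was the least abundant member in both groups, with an FPKM of 1.02 and 1.06 and a log2 ratio of 0.044, and Cuffdiff made no test for it. It lies on chr17:45555703-45563169 on the plus strand.

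The 3 cytoplasmic inhibitors summed to 45.4 FPKM in the controls and 53.0 FPKM after LIPUS, a ratio of 1.17. Nfkbia made up 45.9% of this sum in the controls and 57.5% after LIPUS, while Nfkbib made up 51.9% and 40.5%. Nfkbia over Nfkbib was 0.884 in the controls and 1.42 after LIPUS. The inhibitors together over the subunits together gave 0.503 and 0.559.

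The nuclear IkB proteins bind dimers on DNA and tune transcription in place of holding NF-kB in the cytoplasm. Nfkbiz encodes IkB-zeta, which is needed for a second wave of NF-kB targets such as Lcn2 and Il6. Its level was 27.3 FPKM in the controls and 17.3 FPKM after LIPUS. The level was thus 1.58-fold lower with LIPUS, a log2 ratio of -0.66, and 117 of the 3546 genes in its range of expression had a ratio at least as low. In absolute terms the difference of Nfkbiz, -10.03 FPKM, was about as large as that of Nfkbia, 9.69 FPKM, with the opposite sign. Nfkbiz spans chr16:55811375-55838899 on the minus strand, and no annotated gene overlaps it.

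Bcl3 encodes a nuclear IkB protein that works with p50 and p52 homodimers. Its level was 2.29 FPKM in the controls and 3.37 FPKM after LIPUS, a log2 ratio of 0.54, and 366 of the 1731 genes of its range had a ratio at least as high. Bcl3 lies on chr7:19808462-19822770 (minus strand) and overlaps the antisense genes Gm16174 and Gm16175. Gm16174, with an FPKM of 1.81 and 0.913, shares 0 exonic bases with Bcl3. Gm16175 shares 161 exonic bases with it and is listed at 0 in both groups. Nfkbiz and Bcl3 together summed to 29.6 FPKM and 20.7 FPKM, and Nfkbiz made up 92.3% and 83.7% of this sum. Of these nuclear IkB genes, Nfkbiz was past the fold and Bcl3 was not.

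**Figure D3:**
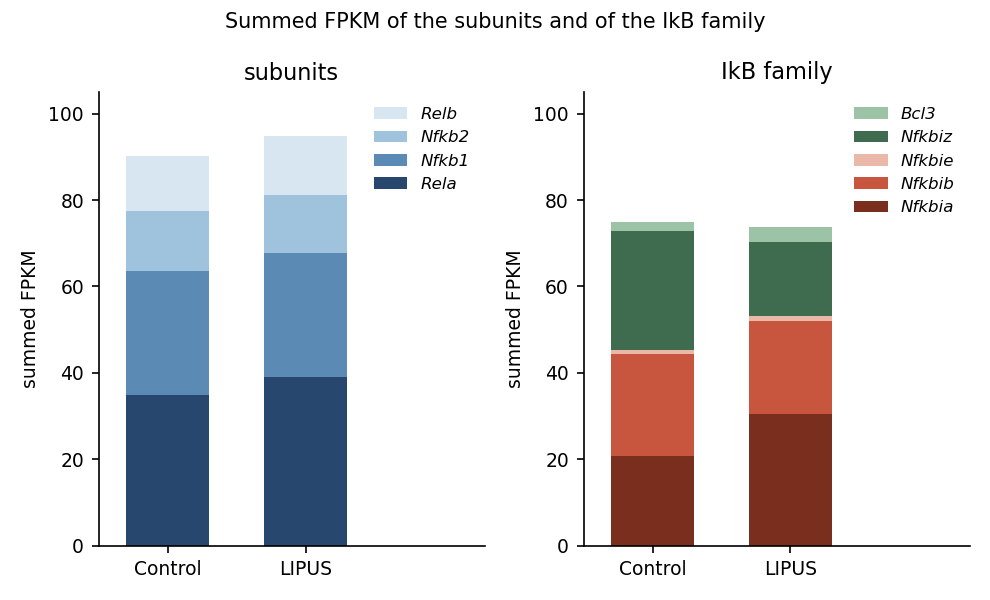
Stacked bars of FPKM in Control and LIPUS for the 4 subunits (left) and the 5 members of the IkB family (right), 1 pooled value per group. The subunits summed to 90.2 and 94.9 FPKM in similar proportions, while in the IkB family a taller Nfkbia block stood beside a shorter Nfkbiz block.

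Tnfaip3 encodes A20, which removes and adds ubiquitin on adaptors upstream of the IkB kinases and so ends the signal. Its level was 1.99 FPKM in the controls and 3.25 FPKM after LIPUS, 1.63-fold higher without the pseudocount and with a log2 ratio of 0.68 with it. Of the 1731 genes of its range 305 had a ratio at least as high, and Cuffdiff made no test for it. With a pseudocount of 1 FPKM the log2 ratio was 0.51, below the fold used for counting. Tnfaip3 spans chr10:19000910-19015657 on the minus strand. Its level was far below that of Nfkbia, with Nfkbia over Tnfaip3 at 10.5 in the controls and 9.39 after LIPUS.

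The order of the members by FPKM in control cells was Rela, Nfkb1, Nfkbiz, Nfkbib, Nfkbia, Nfkb2, Relb, Bcl3, Tnfaip3 and Nfkbie. In LIPUS-treated cells it was Rela, Nfkbia, Nfkb1, Nfkbib, Nfkbiz, Relb, Nfkb2, Bcl3, Tnfaip3 and Nfkbie. Nfkbia went from place 5 to place 2 and Nfkbiz from place 3 to place 5. Nfkb2 and Relb also changed places, but their values differed by little in either group. Without values of single libraries, neighbours with such close values cannot be told apart in this order. The ratio of Nfkbia to Nfkbiz was 0.761 in the controls and 1.76 after LIPUS, a 2.31-fold difference. This pair sets a higher member against the only member lower past the fold, and not every pair of members was computed. With 2 pooled values for each gene, likeness of pattern between genes has no meaning, and no gene was ranked by it.

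The rest of the pathway was described with 6 lists of 81 genes, of which 71 passed the minimum. Of these, 6 were higher and 4 were lower past 1.5-fold, 14.1% against 15.5% of all genes compared. The median log2 ratio was -0.025. At a fold of 0.32 on the log2 scale, 31 of the 71 genes were past it against 34.5% of all genes compared, and at a fold of 2 it was 1 of the 71 against 5.61%.

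Among 11 ligands, 5 were compared and 3 were higher past the fold, with none lower, against 15.5% of all genes compared, 41.2% of those at 1 to 3 FPKM and 20.1% of those at 3 to 10 FPKM. Tnf, the prototype activator of the canonical pathway, had 3.12 FPKM in the controls and 4.93 FPKM after LIPUS. Tnfsf11, which encodes RANKL, had 2.23 and 4.19 FPKM, and Il33, an alarmin of the IL-1 family, had 2.04 and 3.49 FPKM. All 3 are low genes without a Cuffdiff test, and 1 of them was past the fold with a pseudocount of 1 FPKM. Tnfsf13b, which encodes BAFF and lay below the minimum, had 0.869 and 0.228 FPKM and was the 1 ligand lower past the fold when no minimum was set. The most abundant ligand was Tnfsf12, which encodes TWEAK, an activator of the non-canonical pathway, with 11.35 and 13.02 FPKM. Il1a, Il1b, Lta, Ltb and Cd40lg are listed at 0 in both groups.

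Of 17 receptors, 14 were compared, with 1 lower past the fold and none higher, against 15.5% of all genes compared. Tlr3, a receptor of double-stranded RNA, had 8.0 FPKM in the controls and 4.72 FPKM after LIPUS, a log2 ratio of -0.75. The most abundant receptor was Il1rl1, the receptor of IL-33, with 405 and 596 FPKM and a log2 ratio of 0.56, just under the fold. Without the pseudocount, 1 receptor was higher past the fold, Tlr4 with 3.13 and 4.73 FPKM.

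Of 16 adaptors all were compared, with 2 higher and 2 lower past the fold, 25% against 15.5% of all genes compared. Irak2, a kinase-like adaptor of the IL-1 and Toll-like receptors, had 13.9 FPKM in the controls and 21.3 FPKM after LIPUS. Traf1, itself a textbook NF-kB target, had 0.954 and 1.67 FPKM. Tirap, a bridging adaptor of Toll-like receptors, had 9.98 and 5.53 FPKM, and Traf5, an adaptor of TNF receptors, had 5.59 and 2.74 FPKM. Cuffdiff made no test for Traf1 and Traf5. By mean FPKM, Traf1 lies in the range of 1 to 3, where 41.2% of genes were past the fold. Traf5 lies in the range of 3 to 10, where 20.1% were. Irak1 was the most abundant adaptor with 35.6 and 42.0 FPKM.

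None of the 11 kinases and kinase partners was past the fold, against 15.5% of all genes compared. Their log2 ratios ran from -0.48 to 0.47. Chuk, Ikbkb and Ikbkg, which encode the IkB kinase complex, had log2 ratios of -0.079, -0.057 and -0.072. Tab2, a partner of the kinase TAK1, was the most abundant with 58.2 and 51.5 FPKM. Of 10 ubiquitin enzymes, 1 was past the fold, 10% against the same 15.5%. Sharpin, a subunit of the linear ubiquitin ligase, had 78.8 FPKM in the controls and 47.0 FPKM after LIPUS, a log2 ratio of -0.74. Ube2n, which builds ubiquitin chains in this pathway, was the most abundant with 240 and 236 FPKM.

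Of 16 other subunits and brakes, 15 were compared and 1 was past the fold, 6.67% against 15.5% of all genes compared. Zc3h12a encodes Regnase-1, an endoribonuclease that is itself induced by NF-kB and is known to cleave Il6 and Nfkbiz mRNA. Its level was 16.4 FPKM in the controls and 28.3 FPKM after LIPUS, a log2 ratio of 0.78. The most abundant of these genes was Rnf11, a partner of A20, with 107 and 80.2 FPKM. The median log2 ratio of the list was -0.059, and -0.35 among the 13 genes with status OK. At a fold of 0.32 on the log2 scale, past which 34.5% of all genes compared lay in either direction, 2 of these 15 genes were higher and 7 lower. At that fold the counts of higher and lower genes were 3 and 1 for the ligands, 2 and 2 for the receptors, 5 and 4 for the adaptors, 2 and 2 for the kinases and 0 and 1 for the ubiquitin enzymes.

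Textbook NF-kB targets outside the members went both ways. Of 37 genes, 29 were compared, 9 of them higher and 3 lower past the fold, which is 41.4% against 15.5% of all genes compared, with a median log2 ratio of 0.09. With a minimum of 10 FPKM, 27 of these genes were compared, and the same numbers, 9 higher and 3 lower, were past the fold against 6.86% of all genes compared. Many of these genes have further regulators, and the list was written with earlier results of these data known. The largest ratios toward higher levels were those of Saa3 (23.9 FPKM in the controls and 77.1 after LIPUS), Lcn2 (13.8 and 34.3 FPKM), Mmp3 (40.5 and 99.0 FPKM), Gadd45b (40.8 and 88.6 FPKM) and Ptgs2 (205 and 381 FPKM). Il6 had 8.98 and 16.5 FPKM. Lower past the fold were the chemokines Ccl5 (88.7 and 35.6 FPKM), Ccl7 (14.1 and 6.48 FPKM) and Ccl2 (23.7 and 12.9 FPKM). Csf1, the most abundant of the list, had 2296 and 2212 FPKM.

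**Figure D4:**
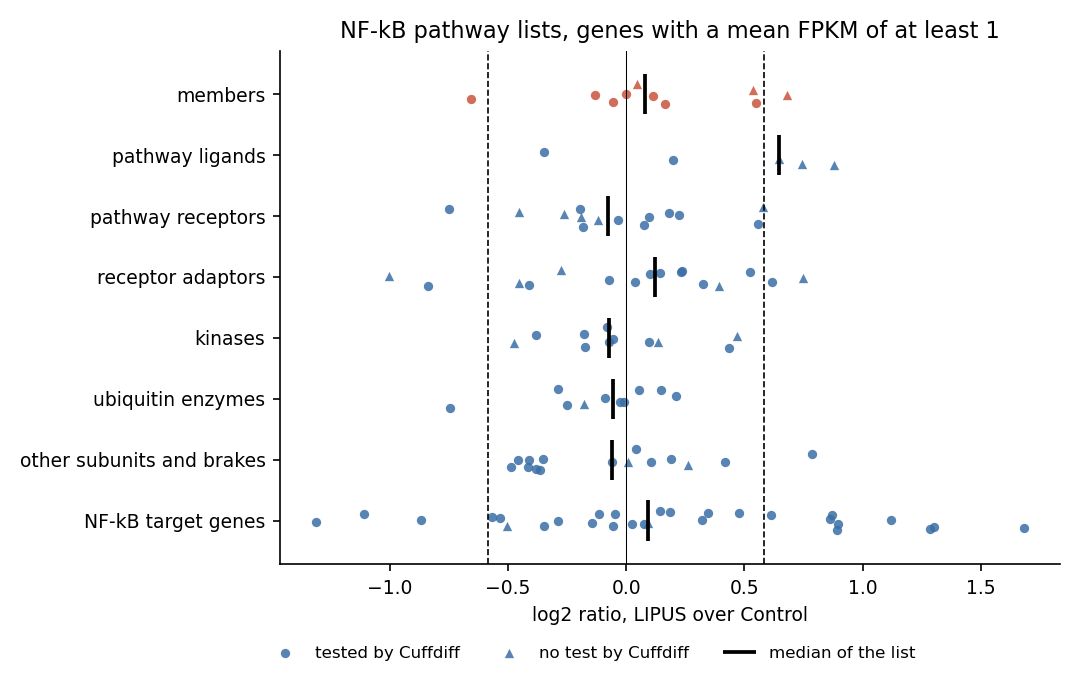
Log2 ratios of LIPUS over Control for the members (red) and for the lists of pathway genes and targets (blue), for genes with a mean FPKM of at least 1. Circles were tested by Cuffdiff, triangles were not, black bars are medians and dashed lines mark 1.5-fold. The kinases all lie within the dashed lines, while the NF-kB targets spread from -1.31 for Ccl5 to 1.68 for Saa3.

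The markers fixed for the cell line were present in part. Of 7 osteocyte markers, Pdpn had 295 and 402 FPKM, Gja1 had 176 and 170 FPKM and Dmp1 had 3.04 and 7.65 FPKM, while Sost, Fgf23 and Mepe are listed at 0 in both groups and Phex was listed at 0 in the controls and had 0.19 FPKM after LIPUS. Of 5 macrophage markers, Ptprc and Adgre1 are listed at 0 in both groups, and Csf1r had 0.236 FPKM in the controls and 0.233 after LIPUS. The summed level of the list was 7.56 FPKM in the controls and 2.14 after LIPUS, mostly Cd68 (5.32 and 1.72 FPKM) and Lyz2 (2.01 and 0.189 FPKM). Of 4 endothelial markers, 3 are listed at 0 in both groups, and Pecam1 had 0.496 FPKM in the controls and is listed at 0 after LIPUS. The part of these low marker levels in the differences of Nfkbiz and Nfkbia was not tested.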

How the data were processed

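RNA-seq of 3 LIPUS-treated and 3 control MLO-Y4 cultures was analysed from a single deposited table. Reads of 100 bases were, per the submitters' processing notes and the methods, trimmed with Trimmomatic 0.36 and aligned to GRCm38 with TopHat2 2.1.0 and Bowtie2 2.2.6.0. The authors computed FPKM with Cufflinks and compared the groups with Cuffdiff, and deposited 1 pooled FPKM per group together with a status. The table also holds the authors' own log2 fold change, test statistic, p-value, q-value and call, which were not used.

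From the FPKM, log2 ratios with a pseudocount of 0.1 were computed for genes with a mean FPKM of at least 1, and 1.5-fold was used for counting. No test of its own could be computed from 1 value per group, the authors' test was left unused, and the table gives no depth. The members and lists were chosen with earlier results of these data known. Named genes are the members, list genes past the fold (at most 5 in each direction) and the most abundant gene of each list, besides markers. Chuk, Ikbkb, Ikbkg, Rel, Il6, Tlr4, Tnfsf13b, the ligands listed at 0 and genes overlapping members fall outside this rule and were named after their values were seen. Positions and exonic lengths are from GENCODE M21, and promoters from RefSeq (GRCm38.p6). Python 3.11.15 with numpy 2.4.6, pandas 2.3.3 and matplotlib 3.10.9 was used. The steps were also run on simulated data with planted changes and less noise than the real low genes show. That run checks the computation and not the reliability of the counts. Alternatives changed the pseudocount, the minimum, the fold, the genes compared and the centring.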

Additional observations from a re-analysis of the deposited data

How the results depend on the processing

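Of 54 recomputed log2 ratios of single members, 52 lay within 0.1 of the value reported, and with a pseudocount of 1 FPKM the ratios of Tnfaip3 and Bcl3 were 0.51 and 0.41. Nfkbiz stayed between -0.66 and -0.63 and Nfkbia between 0.53 and 0.55. The members past the fold were 2 as reported. They were 1, Nfkbiz, with a pseudocount of 1 FPKM, with a minimum mean FPKM of 10 and among genes with status OK, where fewer genes enter, 4 at a fold of 0.32 on the log2 scale and 0 at a fold of 2. The genes of the pathway lists past the fold were 10 of 71 as reported, 7 of 71 with a pseudocount of 1 FPKM, 3 of 38 with a minimum of 10 FPKM, 5 of 52 with status OK, 31 of 71 at a fold of 0.32 on the log2 scale and 1 of 71 at a fold of 2. The share of all genes compared past the fold was 11.6% with a pseudocount of 1 FPKM, 6.86% with a minimum of 10 FPKM, 9.31% with status OK, 32.1% without a minimum, 34.5% at a fold of 0.32 on the log2 scale and 5.61% at a fold of 2. Of the ligands, 3 were higher past the fold as reported, 1 with a pseudocount of 1 FPKM and 0 with status OK or with a minimum of 10 FPKM. Of the 16 adaptors, 2 were higher and 2 lower as reported, and 1 and 2 with a pseudocount of 1 FPKM. Among the 11 adaptors with status OK the counts were 1 and 1, and among the 6 that passed a minimum of 10 FPKM they were 1 and 0. The median of the ligands turned from 0.65 to -0.076 with status OK, where 2 ligands remain, and that of the other subunits and brakes from -0.059 to -0.35, where 13 of 15 remain. No paired analysis was possible because the table has no values of single libraries, and for the same reason no replicate could be left out in turn. Without counts per gene, no counting error can be given for the low genes Nfkbie, Tnfaip3 and Bcl3.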
